A study of Homo sapiens with 30 samples.

Results

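The regions described here were open chromatin in telencephalon-medium cells grown from anterior neural ectoderm, the group the labels call aNE_T, and in none of the other 9 cell populations of the series. They were chosen by peak presence. Peaks of the 10 deposited lists on chromosomes 1 to 22 were joined into merged regions wherever they shared 1 bp or more, and each list with a peak in a merged region counted as open there. Of 476170 merged regions, 6155 (1.29%) were open in aNE_T only, which is 3.39% of the 181467 regions open in aNE_T. Because presence and absence of peaks made the choice, these counts are a description with no test.

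OmniATAC-seq marks open chromatin by letting the Tn5 transposase cut DNA that nucleosomes leave free. It was run on 3 biological replicates of 10 groups of wild-type H1 cells, a human embryonic stem cell line. The groups were undifferentiated cells (hPSC), definitive ectoderm at day 1 (DE), anterior and posterior neural ectoderm at day 2 (aNE and pNE), and 6 populations at day 4 that had been moved from aNE or pNE into telencephalon, midbrain or hindbrain media (suffixes T, M and H). Every differentiated group first passed through the DE medium with A8301 at 1 µM (a TGF-β receptor inhibitor), Trametinib at 250 nM (a MEK inhibitor), C59 at 1 µM (a blocker of WNT secretion) and LDN193189 at 100 nM (a BMP receptor inhibitor). The aNE medium kept A8301, LDN193189 and C59 and added Thiazovivin at 1 µM for survival after passaging. The pNE medium also held A8301, LDN193189 and Thiazovivin, had no C59, and had TTNPB at 50 nM (a retinoid receptor agonist), FGF2 at 20 ng/mL and XAV939 at 1 µM (a tankyrase inhibitor that dampens WNT signalling). The forebrain medium began at day 3 with XAV939, LDN193189 and FGF2 at the doses just given. Plating density for the day 4 groups was 75000 cells per square cm for those of aNE origin and 150000 for those of pNE origin. Among the day 4 groups, origin and plating density thus cannot be told apart. The day 2 groups aNE and pNE were plated at 37500 cells per square cm. Between day 2 and day 4, day and plating density cannot be told apart. All samples come from 1 cell line. The deposited data are 1 list of peak positions per group, so no value has a replicate error, the read depth behind a peak is unknown, and intervals cover the sampling of regions or genes only.

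The telencephalon is the front of the neural tube and gives rise to the cerebral cortex and basal ganglia. It forms where WNT and BMP signals are low and FGF signals are present. SHH from below patterns its ventral side. Enhancers, the distal regulatory elements that drive cell-type-specific transcription, are often open in fewer cell types than promoters, and accessibility alone does not say whether an element is active.

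The RefSeq promoter windows that an aNE_T-only region overlaps show what kind of start sites these regions met, and 8 of them are printed here because they carry the contrast with other promoters open in aNE_T. Each window runs from 250 bases before to 50 bases after an annotated start in GRCh38.p14. They are written 5′ to 3′ on the strand of the gene, with the bases inside the aNE_T-only region in capitals. The first 6 are all the windows of protein-coding genes in which the region covered over 150 bases, MAP3K19 holds no CpG, and TMEM151A had the highest GC content of all 42 windows met.
GATA3: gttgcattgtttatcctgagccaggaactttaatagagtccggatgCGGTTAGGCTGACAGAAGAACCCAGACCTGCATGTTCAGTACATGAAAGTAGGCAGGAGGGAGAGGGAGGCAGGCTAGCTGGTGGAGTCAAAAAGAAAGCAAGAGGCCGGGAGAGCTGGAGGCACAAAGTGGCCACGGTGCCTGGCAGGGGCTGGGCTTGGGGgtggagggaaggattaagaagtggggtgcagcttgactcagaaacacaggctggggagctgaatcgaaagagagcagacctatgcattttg
MLEC: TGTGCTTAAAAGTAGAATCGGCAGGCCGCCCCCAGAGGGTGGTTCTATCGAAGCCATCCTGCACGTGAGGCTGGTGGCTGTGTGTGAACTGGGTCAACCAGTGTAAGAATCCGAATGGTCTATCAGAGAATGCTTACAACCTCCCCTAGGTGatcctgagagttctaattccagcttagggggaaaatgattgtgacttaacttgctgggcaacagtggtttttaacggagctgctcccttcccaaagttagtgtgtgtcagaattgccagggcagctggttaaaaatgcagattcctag
NAP1L4: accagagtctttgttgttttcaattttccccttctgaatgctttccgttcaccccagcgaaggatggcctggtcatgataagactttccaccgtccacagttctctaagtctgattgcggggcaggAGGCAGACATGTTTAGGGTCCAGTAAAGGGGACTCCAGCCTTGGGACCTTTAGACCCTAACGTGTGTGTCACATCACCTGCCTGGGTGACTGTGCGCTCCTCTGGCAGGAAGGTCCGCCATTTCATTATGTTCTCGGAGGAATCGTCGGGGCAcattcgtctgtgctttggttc
UMODL1: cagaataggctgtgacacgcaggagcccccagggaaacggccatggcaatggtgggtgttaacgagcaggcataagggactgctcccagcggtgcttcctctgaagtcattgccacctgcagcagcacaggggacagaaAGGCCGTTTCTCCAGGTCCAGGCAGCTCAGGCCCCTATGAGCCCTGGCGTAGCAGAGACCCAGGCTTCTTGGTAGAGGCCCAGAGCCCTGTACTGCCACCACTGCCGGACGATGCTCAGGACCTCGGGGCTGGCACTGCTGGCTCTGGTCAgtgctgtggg
OR52K1: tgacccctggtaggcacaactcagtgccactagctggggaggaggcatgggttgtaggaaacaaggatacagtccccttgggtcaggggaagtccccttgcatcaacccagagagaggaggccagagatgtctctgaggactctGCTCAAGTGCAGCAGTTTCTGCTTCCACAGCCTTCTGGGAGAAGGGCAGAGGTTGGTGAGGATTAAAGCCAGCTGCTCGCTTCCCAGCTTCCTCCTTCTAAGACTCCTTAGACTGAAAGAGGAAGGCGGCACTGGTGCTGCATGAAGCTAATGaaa
LOC124904930: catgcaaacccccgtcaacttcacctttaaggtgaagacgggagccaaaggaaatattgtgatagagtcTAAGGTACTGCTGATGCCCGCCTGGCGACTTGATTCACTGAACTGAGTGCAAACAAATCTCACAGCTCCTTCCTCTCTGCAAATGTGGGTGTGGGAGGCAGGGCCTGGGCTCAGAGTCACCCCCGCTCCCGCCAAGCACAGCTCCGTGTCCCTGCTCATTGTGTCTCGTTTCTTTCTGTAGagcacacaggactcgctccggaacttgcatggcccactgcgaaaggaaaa
MAP3K19: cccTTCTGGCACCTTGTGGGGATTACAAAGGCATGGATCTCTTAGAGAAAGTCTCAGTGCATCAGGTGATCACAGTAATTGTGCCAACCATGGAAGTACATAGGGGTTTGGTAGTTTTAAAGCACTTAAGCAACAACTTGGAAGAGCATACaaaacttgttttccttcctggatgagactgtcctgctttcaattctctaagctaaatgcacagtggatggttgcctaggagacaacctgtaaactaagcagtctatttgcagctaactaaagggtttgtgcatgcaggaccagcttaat
TMEM151A: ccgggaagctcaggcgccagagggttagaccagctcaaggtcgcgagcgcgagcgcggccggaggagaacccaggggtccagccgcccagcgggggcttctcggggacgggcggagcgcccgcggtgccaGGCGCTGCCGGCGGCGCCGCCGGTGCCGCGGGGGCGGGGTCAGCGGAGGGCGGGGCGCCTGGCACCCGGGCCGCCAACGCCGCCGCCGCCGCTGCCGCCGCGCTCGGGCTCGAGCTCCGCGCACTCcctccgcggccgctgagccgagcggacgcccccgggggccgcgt

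The GATA3 window is chr10:8060207-8060506 on the plus strand and lies inside the gene as annotated, and the region is chr10:8060253-8060415. GATA3 encodes a zinc-finger factor of surface ectoderm, the inner ear and T cells. The region at MLEC, which encodes a carbohydrate-binding protein of the endoplasmic reticulum, is chr12:120687893-120688211 and meets the window chr12:120688060-120688359 on the plus strand. NAP1L4 encodes a histone chaperone, and its region chr11:2991075-2991227 lies in the window chr11:2991054-2991353 on the minus strand. The UMODL1 window is chr21:42071067-42071366 on the plus strand, with the region at chr21:42071206-42071356. The OR52K1 window, for an olfactory receptor gene, is chr11:4482396-4482695 on the plus strand, with the region at chr11:4482540-4482692. The LOC124904930 window is chr20:51354177-51354476 on the minus strand, with the region at chr20:51354227-51354407. The MAP3K19 window, for a protein kinase gene, is chr2:135047398-135047697 on the minus strand, with the region at chr2:135047547-135047694. The TMEM151A window, for a transmembrane protein, is chr11:66291644-66291943 on the plus strand, with the region at chr11:66291774-66291899.

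These windows were poor in CpG compared with other promoters open in aNE_T. Of 33725 autosomal promoter windows with a sequence, 42 were overlapped by an aNE_T-only region (41 genes, 19 of the windows of protein-coding genes), against 21018 overlapped by another aNE_T region. The median GC content was 49.3% in the 42 windows, 64.7% in the 21018 and 58.7% in all. The median number of CpG dinucleotides per 300 bases was 3.5, 24 and 14 in the same order. The sets also differed in gene type. Protein-coding genes held 45.2% of the 42 windows, 76.6% of the 21018 and 62.7% of all, and the part of this in the contrast was not tested. Some of the 42 were barely met, C20orf173 by 1 base and OR6T1 by 15. LOC105371119 enters with overlapping windows met by the same region. GATA3 had 5 CpG in its window, MLEC 6, NAP1L4 11, UMODL1 9, OR52K1 2 and LOC124904930 11. TMEM151A stood at the other end, with 52 CpG and a GC content of 82.0%. In the 42 windows the GC content ran from 37.3 to 82.0%, so the GC-rich class was present but rare.

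Short motifs were searched as plain letters on both strands of the whole window. GGGCGG, the site of SP and KLF factors, was in 4 of 42 windows (9.52%, Wilson 95% interval 3.77 to 22.1%), in 64.6% of the other promoters open in aNE_T and in 45.0% of all. ACAATG, a SOX-type site, was in 10 of 42 (23.8%, 13.5 to 38.5%), against 7.16% and 10.8%. CATCTG, an E box of bHLH factors, was in 13 (31.0%, 19.1 to 46.0%), against 10.6% and 14.7%. TTGGCA, an NFI-type site, was in 10 (23.8%), against 9.93% and 12.5%. TAATCC, the OTX type, was in 6 (14.3%, 6.72 to 27.8%), against 4.77% and 6.37%. CCACCAG, part of the CTCF core, was in 7 (16.7%, 8.32 to 30.6%), against 6.49% and 6.59%. In the whole windows GGGCGG was thus rarer, and these 5 motifs more frequent, than in all promoters. The GC content of the windows moves with all of these shares, and its part in them was not tested. TAATTA, the core of LIM and related homeodomain factors, was in 0 of 42 windows, which allows a share of up to 8.38% (Wilson), against 4.91% of all, so no difference was detectable with 42 windows. ATGCAAAT, the octamer of POU factors, was likewise in 0 of 42, against 1.75% of all. The other motifs had shares whose intervals held the share of all promoters. They were ACAAAG of SOX and TCF factors at 23.8% against 16.04%, CAGCTG of bHLH factors at 21.4% against 18.0%, TGANTCA of AP-1 at 11.9% against 7.67%, CATTCC of TEAD at 21.4% against 14.0%, AGGTCA of nuclear receptors at 14.3% against 13.8%, CCTTTGA of LEF and TCF at 7.14% against 3.92%, and TGTTTAC of forkhead factors at 2.38% against 3.45%. No 2 of these letter strings are the same, but ACAAAG and CCTTTGA overlap by letters on opposite strands. These counts are over the whole window, of which the aNE_T-only region covers a part. Inside the region itself lay CATCTG in 3 windows, TTGGCA in 4, ACAATG in 5, TAATCC in 4, CCACCAG in 2 and GGGCGG in 3. A match is a string of letters and does not show binding.

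The aNE_T-only regions were narrow. Their median width was 159 bp, with quartiles of 130 and 204 bp and a maximum of 718 bp. Regions open only in another list were similarly narrow, with medians from 149 bp for pNE to 173 bp for pNE_T. The narrow width was thus not particular to aNE_T. The other 175312 regions open in aNE_T had a median aNE_T peak width of 317 bp. The narrowest peak in the aNE_T list is 122 bp, and 1029 aNE_T-only regions (16.7%) had exactly this width, against 7094 of all 191380 aNE_T peaks (3.71%). Peak width moved steadily with the number of lists open. The median aNE_T peak width was 159 bp at regions open in 1 list, 173 bp in 2, 206 bp in 5, 302 bp in 9 and 530 bp in all 10. The number of regions rose in the same order, from 6155 in 1 list over 10587 in 5 to 78808 in 10.

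**Figure D1:**
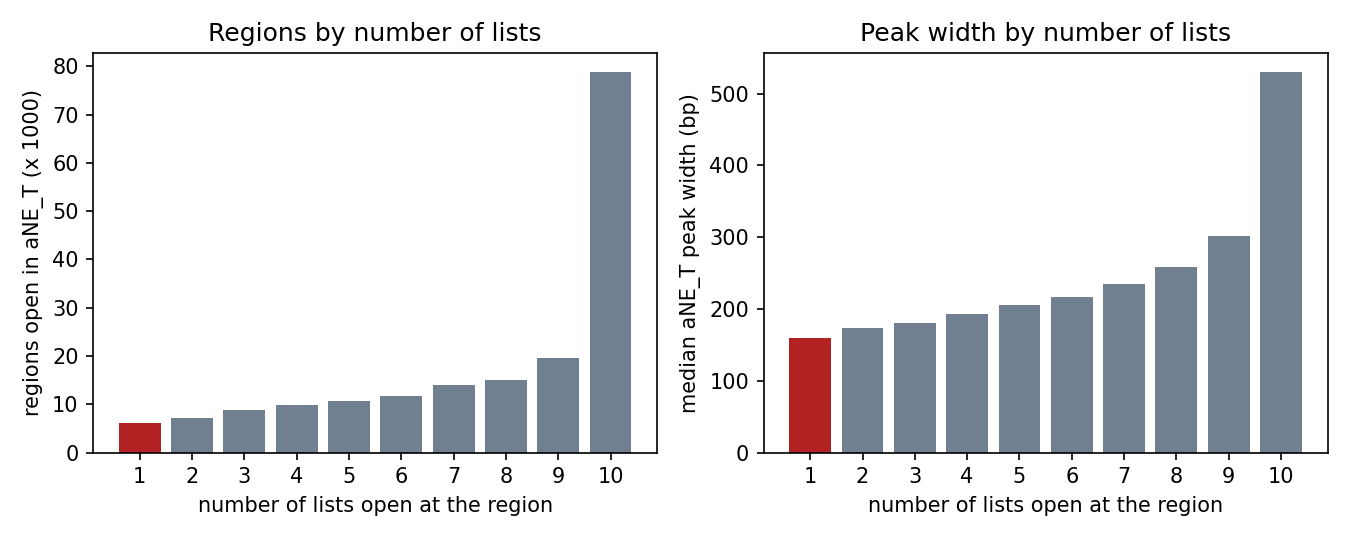
The left panel gives regions open in aNE_T (in units of 1000 regions) and the right panel their median aNE_T peak width (bp), by the number of lists open at the region, with the aNE_T-only regions in red. Both were lowest at 1 list (6155 regions, 159 bp) and highest at 10 (78808 regions, 530 bp).

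Read the other way, narrow peaks of the list were aNE_T-only far more often than wide ones. Of the 24157 aNE_T peaks narrower than 150 bp, 2621 (10.8%) were aNE_T-only. The share was 6.58% for peaks from 150 to under 200 bp and 3.02% from 200 to under 300 bp. It fell to 0.818% from 300 to under 500 bp and to 26 of 53946 (0.0482%) at 500 bp or wider. Peak width was not part of the rule, but a wider peak has more room to meet a peak of another list. Among the aNE_T-only regions themselves, width did not separate positions. Those narrower than 150 bp lay inside protein-coding genes in 53.8% of cases and within 1 kb of a RefSeq gene start in 2.75% (2.19 to 3.45%). The 374 that were 300 bp or wider gave 54.5% and 2.41% (1.27 to 4.51%).

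Many aNE_T-only regions lay close to peaks of other lists. The median gap to the nearest peak of another list was 1021 bp, with quartiles of 307 and 2749 bp. The gap was at most 500 bp for 2177 regions (35.4%) and over 10 kb for 196 (3.18%). At the threshold of 1 bp overlap, 85 regions had a gap of at most 10 bp, with a median width of 153 bp. Just outside it, 54 regions overlapped a single other list by at most 10 bp, with a median aNE_T width of 161 bp. The nearest other peak was from pNE_H for 1437 regions (23.3%), from DE for 1041 (16.9%) and from pNE for 348 (5.65%). pNE_H is also the longest list with 302355 peaks and DE the next with 238994, while pNE has 199638.

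The regions just beyond the choice, open in aNE_T and exactly 1 other list, were most often shared with DE. There were 1661 of them (0.744% of all DE regions), with a median aNE_T width of 166 bp. The midbrain-medium cells of the same origin, aNE_M, shared 1364 (0.686% of aNE_M regions), and these were the widest, at a median of 207 bp. pNE_H shared 1196 (0.412%) and pNE_T, the telencephalon-medium cells of posterior origin, shared 999 (0.507%). aNE, from which aNE_T was grown, shared 465 (0.305%). The remaining partners were hPSC with 543, pNE_M with 369, aNE_H with 271 and pNE with 201. More regions were thus shared with DE alone, 3 days earlier in the protocol, than with aNE alone. The aNE list has fewer peaks (162041) than the DE list (238994), and the share of each list's own regions was also higher for DE.

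For scale, the same rule applied to each list in turn left 2431 regions for aNE (1.60% of its regions), 3972 for pNE (2.13%), 6117 for aNE_M (3.08%) and 8683 for aNE_H (4.69%). The posterior day 4 lists had more, 16390 for pNE_T (8.33%), 17167 for pNE_M (8.80%) and 50360 for pNE_H (17.3%). hPSC had 21899 (11.3%) and DE 26012 (11.7%). The aNE_T count was thus close to that of aNE_M and below that of its counterpart in the same medium, pNE_T.

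**Figure D2:**
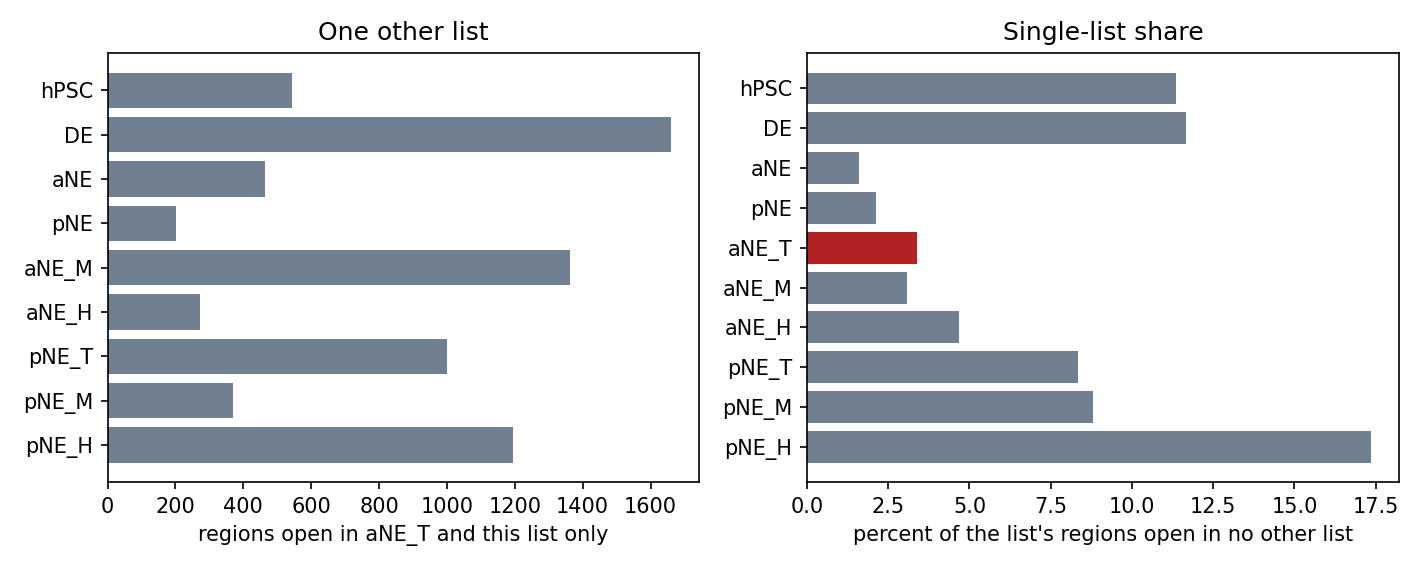
The left panel counts regions open in aNE_T and exactly 1 other list, and the right panel gives the percent of each list's regions open in no other list, with aNE_T in red. DE is the most frequent single partner (1661 regions), and aNE_T has 3.39% of its regions to itself.

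The aNE_T-only regions lay mostly away from gene starts. Within 1 kb of a start in the RefSeq promoter table were 157 regions (2.55%, Wilson 95% interval 2.19 to 2.98%), against 5.22% of all merged regions and 10.1% of the other aNE_T regions. Within 1 kb of either end of any gene were 487 (7.91%, 7.26 to 8.61%), against 11.2% and 17.2%. Between 10 and 50 kb from the nearest start lay 2607 regions (42.4%), against 37.3% of all merged regions and 37.1% of the other aNE_T regions. Over 100 kb away lay 1296 (21.1%), against 24.9% and 20.8%. The median distance to a start was 37295 bp, against 38704 bp for all merged regions. Few regions open in under 10 lists lay at starts. The share within 1 kb was 2.52% with 2 lists and 4.06% with 9, and it reached 18.5% only for regions open in all 10.

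Inside protein-coding genes lay 3302 aNE_T-only regions (53.6%, 52.4 to 54.9%), against 50.0% of all merged regions. Regions open only in aNE_M lay there in 51.1% (49.9 to 52.4%). The 2 intervals nearly touched, with the aNE_M one ending at 52.36% and the aNE_T one beginning at 52.40%. The shares were lower for regions open only in aNE_H (46.9%, 45.8 to 47.9%) and only in pNE_T (47.9%, 47.1 to 48.6%). Those intervals did not reach the aNE_T one. The share was higher for regions open only in DE (55.6%, 55.0 to 56.2%). It was similar for those only in aNE (54.2%, 52.2 to 56.1%) and only in hPSC (53.2%, 52.5 to 53.8%). Outside protein-coding genes and over 50 kb from any of them lay 1455 aNE_T-only regions (23.6%, 22.6 to 24.7%), against 27.3% of all merged regions. The share was 27.7% for aNE_M-only regions (26.6 to 28.9%), 31.4% for aNE_H-only regions (30.4 to 32.4%) and 32.3% for pNE_T-only regions (31.6 to 33.0%). It was lower than in aNE_T for regions open only in aNE (20.2%, 18.7 to 21.9%), DE (20.6%) or hPSC (20.7%). Regions are not replicates, and neighbouring regions share their chromosome domain.

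**Figure D3:**
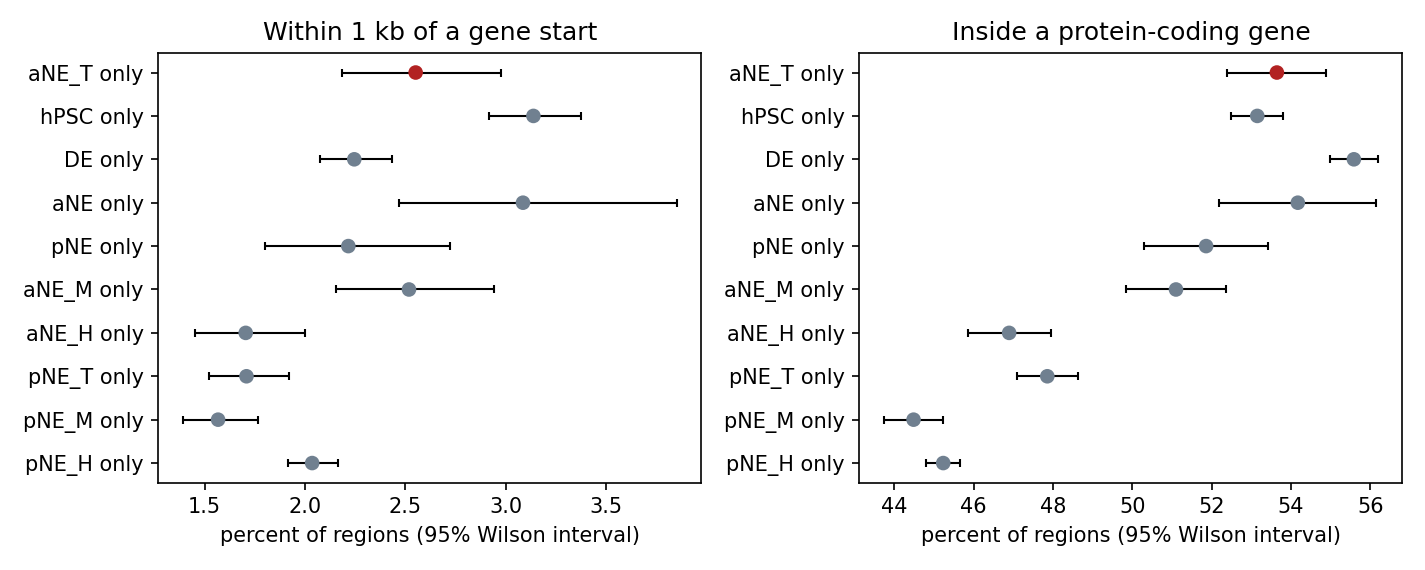
Points give the percent of regions open in a single list that lay within 1 kb of a RefSeq gene start (left) or inside a protein-coding gene (right), with Wilson 95% intervals, and aNE_T-only regions are in red. The axes do not start at 0. The aNE_T-only regions stand at 2.55% and 53.6%, above those of aNE_H and pNE_T in both panels. Those of aNE (3.09% and 54.2%) stand higher in both panels, and those of DE (55.6%) in the right one.

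Every autosome held aNE_T-only regions. They made up 1.02% of the merged regions on chromosome 4 and 1.81% on chromosome 22. As a share of the regions open in aNE_T, the lowest value was 2.53% on chromosome 19 and the highest 4.16% on chromosome 16. The median distance from one to the next was 112932 bp, and 2879 (46.8%) had another within 100 kb. For the aNE_M-only regions, nearly equal in number, these values were 135302 bp and 40.4%. The aNE_T-only regions were therefore spaced somewhat more closely than an equally large set.

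Windows of 100 kb with at least 4 aNE_T-only regions began at 27 of the regions. The densest was inside PTPN13, a non-receptor tyrosine phosphatase gene, where 5 of the 10 merged regions between chr4:86659668-86705229 were aNE_T-only. Of these 5, 4 had the narrowest width in the list, 122 bp, and 3 of the other regions in the stretch were open only in aNE, from which aNE_T was grown. Another 5 of 26 lay inside FSTL4, a follistatin-like gene, at chr5:133451987-133525812, where 8 more were open only in pNE_H. MAML2, a co-activator of Notch signalling, held 5 of 35 at chr11:96142577-96229427, beside 4 open only in pNE_H. SNX29, a sorting nexin, held 5 of 34 at chr16:12024518-12112302, beside 2 open only in hPSC and 2 only in aNE_M. The next, with 4 of 15 at chr1:25098847-25137818, overlapped no protein-coding gene and lay nearest to SYF2, a splicing factor. It also held 2 regions open only in DE. PTPN13 was the only one of the 5 in which the aNE_T-only regions made up as many as 5 of 10.

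Shared regions around the aNE_T-only regions were also open in aNE_T a little more often. Of 40476 regions open in more than 1 list and 1 to 25 kb from an aNE_T-only region, 58.4% were open in aNE_T, against 55.3% of all shared regions, a difference of 3.06 percentage points. The difference was 2.90 for DE, 2.37 for hPSC, 2.01 for aNE, 1.56 for aNE_M, 0.126 for pNE_T and -1.60 for pNE_H. The excess was thus not confined to aNE_T. Around aNE_M-only regions the difference was 1.53 for aNE_T and 0.885 for aNE_M.

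Gene by gene, the presence of an aNE_T-only region followed how many regions a gene's surroundings held. Of 19126 protein-coding genes, 5952 (31.1%) had at least 1 aNE_T-only region inside the gene or within 50 kb of either end, and 4700 of the 345962 merged regions in these windows (1.36%) were aNE_T-only. The share of genes was 14.0% where the window held under 20 regions, 34.9% at 30 to 39 and 80.5% at 100 or more. Over the same classes the number of aNE_T-only regions per 100 regions moved only from 1.27 over 1.28 to 1.38. Of 203 matched developmental genes in 13 lists, 62 (30.5%) had such a region, against 31.1% of all genes. This comparison is not matched for the number of regions. The listed genes had a median of 32 regions in the window, against 27 over all protein-coding genes. By region, the shares of the lists ran from 0.495% at general neural factors to 1.76% at SHH pathway and ventral genes. Only the SHH list lay above the 1.36% of all windows, and these differences were not tested.

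**Figure D4:**
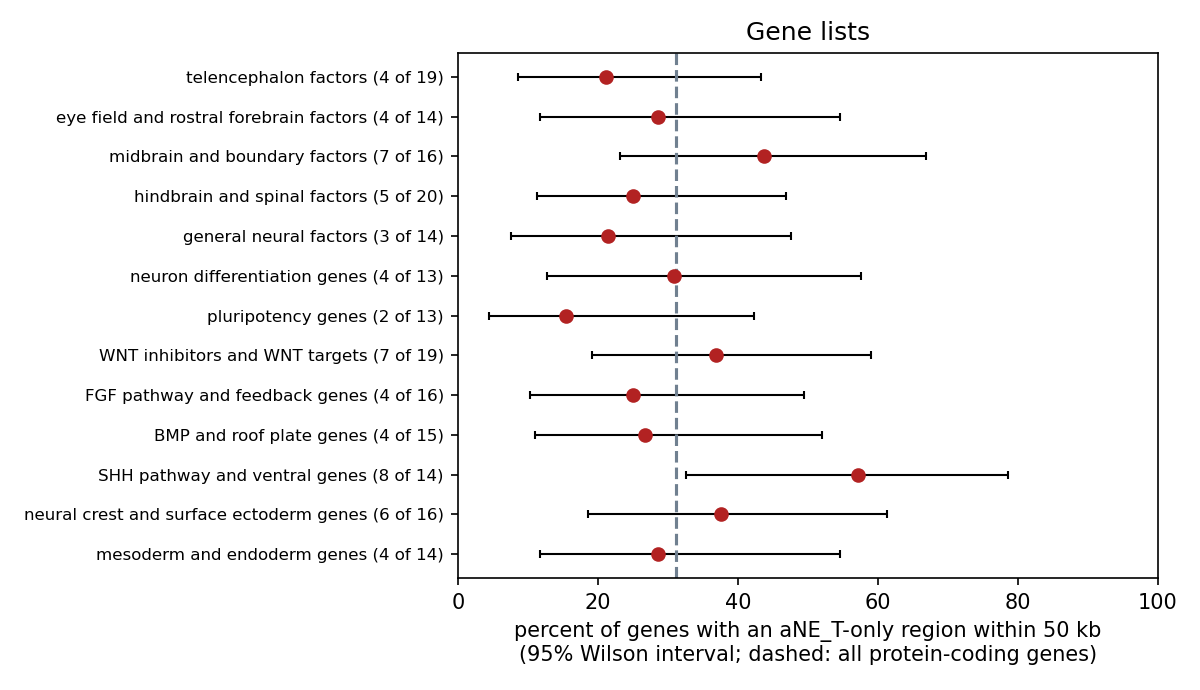
Points give the percent of the genes of each list with at least 1 aNE_T-only region within 50 kb, with Wilson 95% intervals over genes, and the dashed line marks all protein-coding genes at 31.1%. The SHH pathway list (8 of 14) is the only one of the 13 whose interval lies above the line. The line is not matched for the number of regions. Genes with 30 to 39 regions in the window stand at 34.9%, which the SHH interval holds, and the SHH list has a median of 32.5. The telencephalon list (4 of 19) lies below the line with an interval that contains it.

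Genes that mark the telencephalon were not where aNE_T-only regions gathered. Only 4 of 19 telencephalon factors had one within 50 kb (21.1%, 8.51 to 43.3%), and 5 of the 499 merged regions there were aNE_T-only (1.00%, against 1.36% around all protein-coding genes). The share of regions was above that of all protein-coding windows under other settings, at 2.11% against 1.80% without the pNE_H list and 2.58% against 2.01% with every list cut to the same number of widest peaks. It rests on 5 to 10 regions. EMX1 and EMX2 of the dorsal cortex, DLX1, DLX2, DLX5 and DLX6 of ventral neurons, NKX2-1 of the medial ganglionic eminence, and TBR1 and EOMES of cortical neurons and their progenitors had none. Around all telencephalon factors aNE_T was open at 257 of 499 regions (51.5%), against 38.1% of all merged regions. aNE_M was open at the same number, 257, against 41.8% of all, and pNE_H at 318 (63.7%), against 61.0%. The ratio of the share at these factors to that of all regions was 1.35 for aNE_T. This ratio was the highest of the 6 day 4 lists, which otherwise ran from 1.05 for pNE_H to 1.23 for aNE_M. aNE_T also had the smallest share of all merged regions of these 6 lists. The ratio was 1.38 for hPSC and 1.36 for aNE. A high aNE_T ratio was not particular to telencephalon factors. It was 1.39 at midbrain and boundary factors, 1.35 at eye field factors and 1.33 at mesoderm and endoderm genes. In each of these gene lists the aNE_T ratio was again the highest of the day 4 lists. At hindbrain and spinal factors it was 1.05, below pNE_M at 1.22. No test of these differences was made, and no RNA was measured in these files.

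The 4 telencephalon factors with an aNE_T-only region were LHX2, GSX2, FEZF2 and BCL11B. LHX2, a LIM homeodomain factor that specifies cortex, had chr9:124077983-124078145, 44.7 kb downstream. GSX2, a homeodomain factor of the lateral ganglionic eminence, had chr4:54108484-54108648 at 6.0 kb downstream, 397 bp from the nearest pNE_H peak. FEZF2, a factor of deep-layer projection neurons, had chr3:62395245-62395420 at 21.7 kb from the gene, which lay nearer to CADPS. This region was isolated, with 9100 bp to the nearest peak of another list. BCL11B, a zinc-finger factor of the same neurons and of the striatum, had 2 inside the gene. One of these, chr14:99213926-99214047, lay 4 bp from an aNE_H peak, and the other, chr14:99225298-99225472, lay 371 bp from an hPSC peak. The 5 regions were between 122 and 176 bp wide.

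Eye field and rostral forebrain factors, which mark the most anterior neural plate, had an aNE_T-only region at 4 of 14 genes (28.6%, 11.7 to 54.6%), with 5 of 392 regions (1.28%). These shares are close to those of all genes. OTX2, a homeodomain factor of forebrain and midbrain, had 2, at chr14:56753466-56753595 (46.3 kb downstream, 130 bp wide) and chr14:56775475-56775738 (24.2 kb downstream, 264 bp wide). The wider one lay 471 bp from a DE peak. SIX3, a factor that keeps WNT signalling out of the forebrain, had chr2:44954743-44954887 at 8.7 kb from the gene. SIX6, a factor of the eye and hypothalamus, had the widest of the 5, 375 bp at chr14:60551046-60551420, 38.2 kb downstream and nearer to C14orf39. PAX6, a master factor of eye and dorsal cortex, had chr11:31772358-31772554, 16.5 kb downstream and inside ELP4, with 1974 bp to the nearest other peak. Of the 36 merged regions around OTX2, aNE_T was open at 16 and the other lists at 11 to 20.

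The SHH pathway and ventral genes had the most. Of 14 genes, 8 had an aNE_T-only region within 50 kb (57.1%, 32.6 to 78.6%, against 31.1% of all genes), and 11 of 624 regions there were aNE_T-only (1.76%, against 1.36%). This was 1 of 13 lists compared, its interval covers the sampling of genes only, and no test of the list was made. Genes of this list had a median of 32.5 regions in the window, against 27 over all protein-coding genes. Of all genes with 30 to 39 regions, 34.9% had an aNE_T-only region, which lies inside the interval of the list. The share of regions rests on 11 regions. SHH itself, the ventral signal, had 2. One lay inside the gene at chr7:155810255-155810395, 74 bp from a pNE_H peak, and the other 49.2 kb upstream at chr7:155861668-155861789. Among the mediators, GLI2, mainly an activator, had 2 inside the gene, of which chr2:120913698-120913982 was 285 bp wide. GLI3, mainly a repressor and needed for dorsal telencephalon, had 2 inside the gene, chr7:42025742-42026089 (348 bp wide) and chr7:42049667-42049960 (294 bp wide). Both were over 1 kb from any other peak, at 1548 and 3929 bp. The receptor gene PTCH1 had 1 inside the gene, chr9:95450308-95450429, 212 bp from an aNE peak. Of the ventral transcription factors, OLIG2 had chr21:33027451-33027629 inside the gene, NKX2-2 had one 19.4 kb downstream, FOXA2 one at 31.1 kb and NKX6-1 one 48.2 kb upstream, which lay nearer to CDS1. The regions at NKX2-2, NKX6-1 and PTCH1 and the upstream one at SHH had the narrowest width in the list, 122 bp, and that at FOXA2 was 125 bp wide. GLI1 and HHIP, which SHH signalling switches on, had none. GLI2 and GLI3 are long genes with 123 and 104 merged regions in their windows, against a median of 27 over protein-coding genes.

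**Figure D5:**
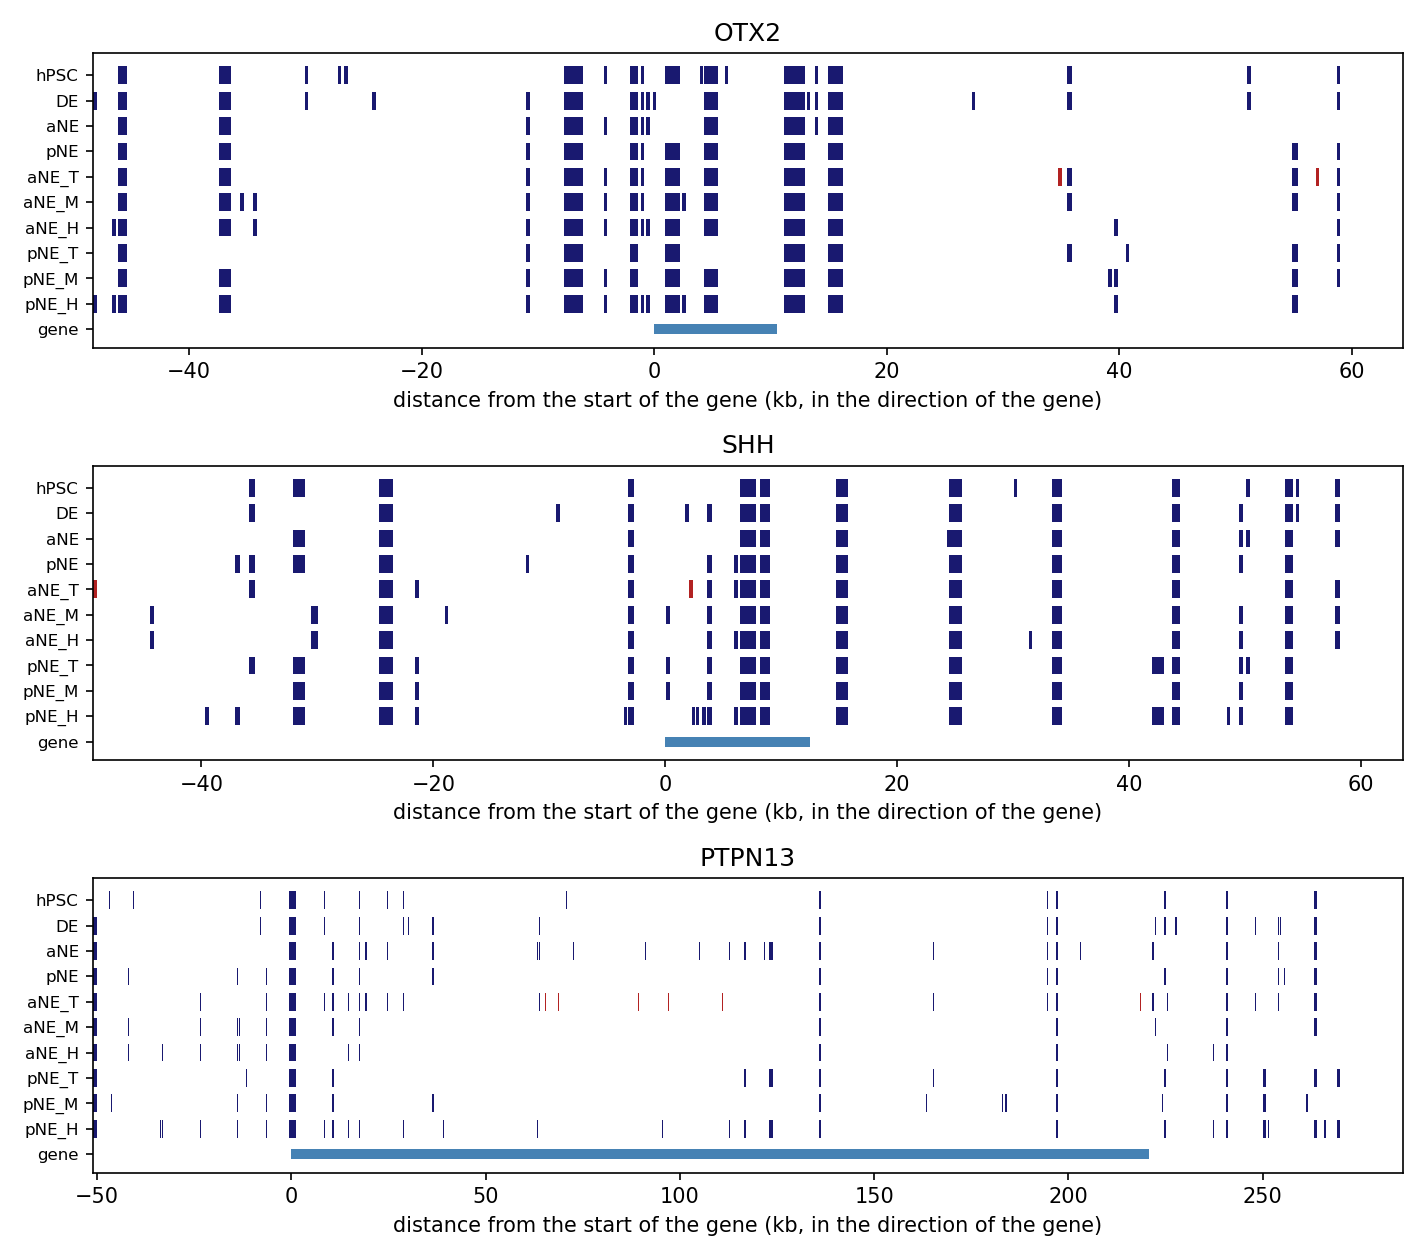
Merged regions open in each list at OTX2, SHH and PTPN13, by distance from the start of the gene (kb, in the direction of the gene), with aNE_T-only regions in red, other regions in dark blue and the gene in light blue; regions narrower than 0.3 kb are drawn 0.3 kb wide. OTX2 and SHH have 2 aNE_T-only regions each. Around these lie regions open in all or most lists and also regions open in 1 or a few other lists. The aNE_T-only region inside SHH lies between a region open only in DE and a region open only in pNE_H. PTPN13 has 6 aNE_T-only regions, most of them in a stretch with few other regions.

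For the signals that set anterior fate, the shares of genes were near the 31.1% of all genes. The shares of regions were below the 1.36% around all protein-coding genes, and this was not tested. WNT inhibitors and targets had an aNE_T-only region at 7 of 19 genes (36.8%, 19.1 to 58.96%), with 8 of 800 regions (1.00%). Among secreted inhibitors these were FRZB with 2 (one inside the gene and one 0.8 kb downstream), DKK1 with 1 at 38.2 kb downstream and WIF1 with 1 at 34.1 kb downstream. Among pathway components, AXIN2 and ZNRF3, both negative feedback genes, and LEF1, a nuclear mediator, each had 1 inside the gene. TCF7L2, another nuclear mediator, had 1 at 38.4 kb upstream. SFRP1 and SFRP2, also secreted inhibitors, had none. BMP and roof plate genes had one at 4 of 15 (26.7%), with 4 of 530 regions (0.755%). They were the ligands BMP2 and BMP7 and the inhibitors SMAD6 and BAMBI. The region near BAMBI, chr10:28627185-28627785, was 601 bp wide and so among the wider ones, 49.7 kb upstream and nearer to WAC.

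FGF pathway genes had one at 4 of 16 (25.0%), with 7 of 650 regions (1.08%). ETV5, an ETS factor induced by FGF signalling, had 3, all inside the gene. They are chr3:186083895-186084041, chr3:186095820-186096009 and chr3:186096752-186097033, with widths of 147, 190 and 282 bp. The last of these lay 152 bp and the one before it 279 bp from an aNE_M peak. Around ETV5 aNE_T was open at 18 of 39 regions, as was aNE_M, and pNE_H at 25. FGF18, a ligand, had 1 inside the gene and 1 at 40.4 kb upstream, nearer to NPM1. The receptor genes FGFR2 and FGFR3 had 1 each, at 33.0 kb upstream and 28.3 kb downstream, the latter inside LETM1.

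Genes of other regions and layers also had aNE_T-only regions nearby, in shares between 15.4 and 43.8% of the genes. Midbrain and boundary factors had one at 7 of 16 (43.8%, 23.1 to 66.8%), with 7 of 645 regions (1.09%). They include PAX2 and PAX5, which pattern the midbrain and its boundary, each with 1 inside the gene, and FGF8, the boundary signal, with a 400 bp region at chr10:101796454-101796853 inside OGA, 7466 bp from any other peak. Hindbrain and spinal factors had one at 5 of 20 (25.0%), with 5 of 767 regions (0.652%). GBX2, CDX1, RARB and MEIS1 were among them, and none of the 7 HOX genes of the list had one. The regions counted for GBX2 and CDX1 lay inside ASB18 and SLC6A7. Neural crest and surface ectoderm genes had one at 6 of 16 (37.5%), mesoderm and endoderm genes at 4 of 14 (28.6%) and pluripotency genes at 2 of 13 (15.4%). General neural factors had one at 3 of 14 (21.4%), among them SOX2, with chr3:181720346-181720544 at 5.9 kb downstream. Neuron differentiation genes had one at 4 of 13 (30.8%), among them the Notch ligands DLL1 and DLL3, where the DLL3 region lay nearer to TIMM50. Each of these intervals held 31.1%.

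By nearest gene end, 4044 protein-coding genes (21.1%) had at least 1 aNE_T-only region, 2759 of them exactly 1 and 89 at least 5. SOX6, a SOX factor of cortical interneurons and progenitors, had the most with 11 of 200 regions (5.50%, 3.10 to 9.58%), against 1.28% over genes with at least 20 regions. Neuronal genes followed. CDH4, a cadherin, had 10 of 302, PTPRT, a receptor phosphatase of synapses, 9 of 241, DAB1, the adaptor of reelin signalling in cortical layering, 8 of 180, and PLXNA2, a semaphorin receptor, 8 of 250. KLHL29 had 9 of 270, CELF2, an RNA-binding protein, 8 of 286, KCNMA1, a potassium channel, 8 of 226, and MATN1, a cartilage matrix gene, 8 of 190. Most of these genes are long. SOX6 spans 772 kb, DAB1 1552 kb and MATN1 12.3 kb. These genes were ranked by the count itself, so the counts are a description.

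By share, among the 6264 genes with at least 20 merged regions nearest to them, PTPN13 stood first with 6 of 39 regions (15.4%, 7.25 to 29.7%). AAGAB, a chaperone of clathrin adaptors, had 4 of 28 and SYF2 4 of 35. KDM5B, a histone H3K4 demethylase, had 3 of 21, and SMARCA4, the ATPase of the BAF chromatin remodeller, 3 of 28. The others of the 10 were CEP164 and RIMS3 with 3 of 22 each, ASB18 with 3 of 24, KCNK13 with 3 of 26 and AMD1 with 3 of 28. All but PTPN13, AAGAB and SYF2 rest on 3 regions. aNE_T was open at 28 of the 67 merged regions within 50 kb of PTPN13, pNE_H also at 28, aNE at 25 and the remaining lists at 14 to 20.

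The widest aNE_T-only regions show the upper end of the set. The widest was 718 bp at chr2:114751376-114752093, inside DPP10, a potassium channel subunit gene, and 1106 bp from the nearest other peak. The next were 716 bp at chr12:12909209-12909924 inside GPRC5A, an orphan receptor gene, 646 bp at chr3:46035506-46036151 inside XCR1, a chemokine receptor gene, and 644 bp at chr21:32348875-32349518 inside URB1, a ribosome biogenesis gene. The fifth, 631 bp at chr10:12337619-12338249, lay outside genes and 11.3 kb from CAMK1D, a calmodulin-dependent kinase gene. All 5 were over 1 kb from any other peak, and XCR1's was 7280 bp away. Within 1 kb of a protein-coding start lay 92 aNE_T-only regions (1.49%). The widest of these was 389 bp at chr19:47885739-47886127, 188 bp from the start of SULT2A1, a liver sulfotransferase gene. CIMAP1C (336 bp wide), MLEC (319 bp), LOXHD1 (306 bp) and GIMAP5 (305 bp) followed, at 972, 99, 726 and 351 bp from the start. Of 1461 miRNA hairpins, 1 (MIR6133) was overlapped by an aNE_T-only region and 270 by any region open in aNE_T.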

How the data were processed

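The authors deposited 1 peak list per group of 3 libraries, with the chromosome and the first and last position of each peak and no score, fold or p-value. Per the submitters' processing notes the build was hg38, and FastQC, Bowtie2, MACS2, bedtools and deepTools were used; their versions, the peak threshold and how replicates were combined are not given in the sources used here. A looser threshold or more reads in 1 list would add narrow peaks to it. Depth per sample is unknown. Lists held 162041 to 302355 peaks on chromosomes 1 to 22.

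Peaks were merged, and shares, distances and Wilson 95% intervals computed, with Python 3.11.15, numpy 2.4.6, pandas 2.3.3 and scipy 1.17.1, and the merging was checked on simulated lists. Genes are those of RefSeq GRCh38.p14, whose gene table has no strand, so the side of a gene is given only where the promoter table gives its strand. Promoter sequences are RefSeq's; windows of opposite strands that overlap matched in 2941 of 2941 pairs after reverse complement. No genome sequence was used, so motifs were searched in promoter windows in place of regions. Of 207 listed genes 203 matched on chromosomes 1 to 22, TDGF1 as CRIPTO. Named were listed genes with a region within 50 kb (at most 8 a list), the 10 genes with most regions and the 10 with the largest share among genes with at least 20 regions, and the widest regions and densest windows of 100 kb; a few genes that this rule names are not reported here. The regions, gene lists and rules were chosen with earlier results of these data known. With 1 list per group no test between groups was made.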

Additional observations from a re-analysis of the deposited data

Results flagged for a closer look

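Chromosome X was outside the choice of regions and held 175 regions open in aNE_T only, of 16790 merged regions (1.04%, Wilson 95% interval 0.899 to 1.21%), against 1.29% on chromosomes 1 to 22. It is given because peaks on this chromosome enter none of the comparisons above.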

How the results depend on the processing

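The number of aNE_T-only regions was 6155. It was 3978 when no peak of another list was allowed within 500 bp, and 2854 when only the wider 50% of each list's peaks was used, of which 361 were among the 6155. It stayed within 1.5 times under the other settings: 7746 where a list had to cover 50% of a region, 6779 with every list reduced to its 162041 widest peaks (3131 of the 6155 among them), 4859 with 500 bp windows, 7565 without the pNE_H list, and 6391 to 7975 without each other list in turn (the last chosen after seeing the data). The share within 1 kb of a gene end, 7.91%, was 7.19% with no other peak within 500 bp and 9.53% with 500 bp windows. The share of genes, 31.1%, was 36.2% with 50% covered, 21.7% with no other peak within 500 bp, 32.5% with lists of one size, 16.5% with the wider peaks, 26.0% with 500 bp windows, 35.6% without pNE_H and 21.1% by nearest gene end. It was 20.3% with windows of 20 kb and 45.8% with windows of 100 kb (chosen after seeing the data). Around telencephalon factors the share of regions was 1.00%, against 1.36% around all protein-coding genes. It was below that of all protein-coding windows with no other peak within 500 bp (0.401% against 0.862%), 50% covered, 500 bp windows, 20 kb windows and nearest gene end. It was above with lists of one size (2.58% against 2.01%), without pNE_H (2.11% against 1.80%), with the wider peaks (1.52% against 1.20%) and with 100 kb windows (1.43% against 1.34%). Motif shares over the central 200 bp of the promoter windows stayed within the intervals of the whole windows. CATCTG was at 26.2%, ACAATG at 16.7%, TTGGCA at 19.0%, ACAAAG at 14.3% and GGGCGG at 7.14%. The cause of these changes was not tested. No paired analysis was possible because each list pools its replicates and holds no value per library, and for the same reason no replicate could be left out.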
